A study of Rattus norvegicus with 2 samples.

Results

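Cyclins and the cyclin-dependent kinases they activate were compared between regenerating rat livers after a smaller and a larger resection. The 10 genes described here were chosen by symbol for their role in the cell cycle: the D-type cyclins Ccnd1, Ccnd2 and Ccnd3, the E-type cyclins Ccne1 and Ccne2, cyclin A2 (Ccna2), the B-type cyclins Ccnb1 and Ccnb2, and the kinases Cdk1 and Cdk2. They are 10 of 14217 genes with a named probe set on the array, a set of short oligonucleotides read as 1 signal per transcript, and 15 of 20826 probe sets with a single gene symbol. Both groups were liver remnants of Rattus norvegicus taken 24 h after partial hepatectomy (PH), an operation that removes liver lobes, and they differed in the fraction removed, 1/3PH or 2/3PH. RNA of 3 rats was pooled for each group and each pool was read on 1 array, so 6 rats gave 2 measurements. Strain, sex and age are not stated in the labels used here. The study asked which transcripts separate a resection that is followed by abundant DNA synthesis from one that is followed by little.

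Cyclins are regulatory subunits that accumulate and are destroyed in turn during the cell cycle, and a cyclin-dependent kinase is inactive until a cyclin binds it. In the textbook order, D-type cyclins respond to growth signals and pair with Cdk4 or Cdk6, E-type cyclins pair with Cdk2 at entry into DNA replication, cyclin A2 pairs with Cdk2 and later with Cdk1, and B-type cyclins pair with Cdk1 to start mitosis. Hepatocytes are quiescent in the resting adult liver and re-enter this cycle after resection, for which cyclin D1 is a widely used marker.

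For a subset of these genes, a RefSeq promoter of assembly GRCr8 was at hand, which gave 6 of the 10: Ccnd3, Ccne1, Ccnb1, Ccnb2, Cdk1 and Cdk2. Below are the 250 bases before the annotated start for the mitotic genes Cdk1, Ccnb1 and Ccnb2, and for Cdk2 as a contrast, each read 5′ to 3′ on the gene's strand. They are shown because the first 3 genes were over 4-fold higher after 2/3PH and Cdk2 lay within 2-fold. Ccne1 was 6.90-fold higher too, but it is not printed and had no match to any motif named below. The printed stretches were picked with the ratios known, so they show no link between motif and ratio. Capitals mark 3 motifs searched on both strands: the CCAAT box (CCAAT, or ATTGG where it lies on the opposite strand), the cell cycle genes homology region (TTTGAA) and the E2F motif (TTTCCCGC, TTTCGCGC, TTTGCCGC or TTTGGCGC). No printed match overlaps another. The Cdk1 stretch is chr20:19265043-19265292 on the plus strand, and the others lie on the minus strand, Ccnb1 at chr2:33655226-33655475, Ccnb2 at chr8:79981659-79981908 and Cdk2 at chr7:1721879-1722128.
Cdk1: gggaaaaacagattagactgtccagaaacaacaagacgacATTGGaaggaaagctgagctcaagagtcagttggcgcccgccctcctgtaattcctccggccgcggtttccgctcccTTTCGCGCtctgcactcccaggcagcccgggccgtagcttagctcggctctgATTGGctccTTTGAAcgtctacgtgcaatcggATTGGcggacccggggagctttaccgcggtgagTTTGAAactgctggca
Ccnb1: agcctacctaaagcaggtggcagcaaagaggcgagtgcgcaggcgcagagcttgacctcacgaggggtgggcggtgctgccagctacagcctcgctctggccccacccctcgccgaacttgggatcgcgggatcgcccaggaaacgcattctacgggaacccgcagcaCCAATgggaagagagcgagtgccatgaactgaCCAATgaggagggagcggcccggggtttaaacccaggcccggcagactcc
Ccnb2: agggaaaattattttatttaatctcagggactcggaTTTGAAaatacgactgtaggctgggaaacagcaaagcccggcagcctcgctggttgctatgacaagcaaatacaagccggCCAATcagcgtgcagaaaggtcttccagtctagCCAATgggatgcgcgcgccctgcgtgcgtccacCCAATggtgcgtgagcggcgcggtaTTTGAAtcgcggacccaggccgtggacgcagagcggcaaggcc
Cdk2: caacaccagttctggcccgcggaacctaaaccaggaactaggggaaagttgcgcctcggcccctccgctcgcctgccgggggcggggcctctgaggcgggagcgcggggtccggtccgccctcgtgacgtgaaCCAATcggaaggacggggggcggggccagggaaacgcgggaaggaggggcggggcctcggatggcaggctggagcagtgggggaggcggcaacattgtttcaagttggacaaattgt

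The Cdk1 promoter held 3 CCAAT boxes, 2 TTTGAA matches and 1 E2F match. Its last TTTGAA began 16 bases before the start and its nearest CCAAT box 49 bases before it. Ccnb2 had 3 CCAAT boxes and 2 TTTGAA matches, the nearest of them 68 and 43 bases before the start. Ccnb1 had 2 CCAAT boxes, at 82 and 50 bases, and neither of the other motifs in these letters. Cdk2 and Ccnd3 each had 1 CCAAT box, and Ccne1 had no match to any of the 3 motifs. Among 33469 rat promoter entries of the same length, 34.0% held at least 1 CCAAT box, 9.42% at least 2 and 2.52% at least 3. TTTGAA occurred in 16.2% of them and the E2F motif in 1.73%. Other spellings of these motifs were not searched, so a promoter without a match may still hold a variant. These matches are descriptions of letters and were not tested for binding or function.

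On the 2 arrays, most of these genes were far higher after 2/3PH. Cyclin A2, cyclin D1, Cdk1, both B-type and both E-type cyclins lay between 5.14-fold and 11.7-fold above their 1/3PH signal, whereas Ccnd2, Ccnd3 and Cdk2 lay within 2-fold of it. Signals are MAS 5.0 signals, which are scaled to a common mean on each array, and the log2 ratio is 2/3PH minus 1/3PH. A gene was represented by its brightest probe set and called at a 2-fold difference if its mean log2 signal reached the floor, the median over probe sets, 6.48 (a signal of 89.2). All 10 members reached it, as did 9514 genes in all. A total of 7 of the 10 members passed 2-fold upward, where 6.12% of all genes above the floor did so, and none passed it downward, where 3.68% did. The same 7 were at least 4-fold higher, against 1.44% of genes, and 4 were at least 8-fold higher, against 0.21%. The members and the lists below were chosen with earlier results of these data known, so such shares are descriptions and no test. The median log2 ratio was 2.76 over the members and 0.03 over all genes above the floor. With 1 array per group there was no replicate error, so no difference has a test or a replicate check.

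**Figure D1:**
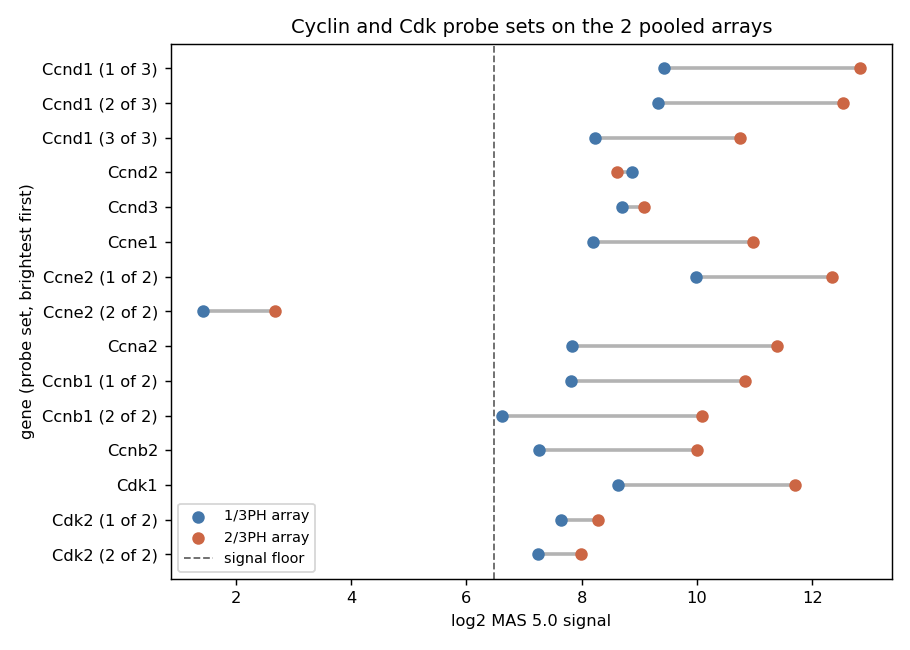
Log2 MAS 5.0 signal (horizontal axis) of the 15 probe sets of the 10 genes, with 1 point for the 1/3PH array and 1 for the 2/3PH array, joined by a line, and the signal floor of 6.48 dashed. The lines of Ccnd2, Ccnd3 and Cdk2 are short, and 1 of the Ccne2 probe sets lies under the floor on both arrays.

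Markers of the cell types in liver were read on the same arrays. The 9 measured hepatocyte markers, albumin and Hnf4a among them, were all above the floor on both arrays, had log2 ratios from -0.77 to -0.05 as deposited, a median of -0.18 that turned positive under quantile, loess and both spike-in scalings, and had a summed signal of 275879 in the 1/3PH pool and 243475 in the 2/3PH pool. As deposited, all 9 macrophage markers were lower after 2/3PH (summed signal 17811 against 11471), as were all 8 sinusoidal endothelial markers (14222 against 8973) and 6 of 8 stellate and fibroblast markers (12432 against 6868). All 5 neutrophil and erythroid markers were lower too (30146 against 14647). Most of that sum was the erythroid marker Hbb, with 24196 against 12168. The neutrophil markers S100a8 and S100a9 had 957 against 534 and 1739 against 691. The 3 cholangiocyte markers above the floor summed to 1226 and 1284. Poly-A controls are probe sets for RNAs meant to be added to a sample in known amount. Scaled to them, 6 of 9 macrophage and 5 of 8 endothelial markers were lower, and the medians of the 4 lower lists lay between -0.55 and -0.23. Of 7 measured lymphocyte markers, only Gzma reached the floor, with a signal that was 151.1 in the 1/3PH pool and 62.3 in the 2/3PH pool, and Cd3e, Cd4 and Cd8a lay under it on both arrays. The part of these shifts in the cyclin values was not tested, and in whole tissue fewer cells of a type and less RNA per cell cannot be told apart. The signal ratio of the 3′ to the 5′ control probe set, a sign of RNA integrity, was 6.68 and 7.53 for beta-actin and 1.58 and 1.28 for GAPDH after 1/3PH and 2/3PH, and its part was not tested either.

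Among the D-type cyclins, which couple growth signals to the cycle, only Ccnd1 passed the 2-fold limit. Its brightest probe set (1383075_at) gave a signal of 690.4 in the 1/3PH pool and 7236 in the 2/3PH pool, for a log2 ratio of 3.39 or 10.5-fold. The second (1371643_at) gave 643.7 and 5960, a log2 ratio of 3.21. The third (1371150_at) gave 299.4 and 1712, a log2 ratio of 2.52 or 5.72-fold. All 3 Ccnd1 probe sets were thus higher after 2/3PH by more than 4-fold, with sizes that spanned 0.87 on the log2 scale.

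The other D-type cyclins showed small differences in opposite directions. Ccnd2, cyclin D2, had a signal of 470.6 in the 1/3PH pool and 392.1 in the 2/3PH pool, for a log2 ratio of -0.26. Ccnd3, cyclin D3, had 417.3 and 539.9, a log2 ratio of 0.37. The sign for Ccnd2 turned positive, to 0.18, when the arrays were scaled to the poly-A controls. The Ccnd1 ratio exceeded that of Ccnd3 by 3.02 and that of Ccnd2 by 3.65 on the log2 scale, so the 3 D-type cyclins were not alike between the arrays. Each of Ccnd2 and Ccnd3 rests on a single probe set.

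Both E-type cyclins, the partners of Cdk2 at entry into S phase, were higher after 2/3PH. Ccne1 (1373530_at), cyclin E1, had a signal of 292.5 in the 1/3PH pool and 2018 in the 2/3PH pool, for a log2 ratio of 2.79 or 6.90-fold. Ccne2 (1374359_at), cyclin E2, had 1014 and 5214, a log2 ratio of 2.36 or 5.14-fold. The second Ccne2 probe set (1391681_at) lay far under the floor on both arrays, at log2 signals of 1.44 and 2.69, and gives no fold. The ratios of Ccne1 and Ccne2 differed by 0.42 on the log2 scale.

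Cyclin A2, which acts in S phase and up to mitosis, had the highest ratio of the 10 genes as deposited. Its single probe set (1379582_a_at) read 228.7 in the 1/3PH pool and 2682 in the 2/3PH pool, for a log2 ratio of 3.55 or 11.7-fold. It ranked 2 of 9514 genes by log2 ratio, and Ccnd1 ranked 4. With 64 signal units added before the log, Ccnd1 at 3.27 lay above Ccna2 at 3.23. The suffix of the Ccna2 probe set marks it as one that can read several transcripts of a gene, and no other probe set carried the symbol.

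The B-type cyclins, which bring Cdk1 into mitosis, were higher by similar amounts. Ccnb1 (1370346_at) had a signal of 226.3 in the 1/3PH pool and 1828 in the 2/3PH pool, for a log2 ratio of 3.01 or 8.08-fold. Its dimmer probe set (1370345_at) gave 97.9, just above the floor, and 1090, a log2 ratio of 3.48. Ccnb2 (1389566_at) had 153.6 and 1023, a log2 ratio of 2.74 or 6.66-fold. The ratios of Ccnb1 and Ccnb2 differed by 0.28, less than the 0.46 between the 2 probe sets of Ccnb1.

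The 2 kinases diverged. Cdk1 (1367776_at), the kinase of mitosis, had a signal of 397.8 in the 1/3PH pool and 3333 in the 2/3PH pool, for a log2 ratio of 3.07 or 8.38-fold, and ranked 17 of 9514. Cdk2 (1378874_at), the kinase of the E- and A-type cyclins, had 200.7 and 310.9, a log2 ratio of 0.63 or 1.55-fold, and ranked 1332. The second Cdk2 probe set (1394320_at) gave 151.2 and 253.1, a log2 ratio of 0.74. The 2 Cdk2 probe sets lay within 0.11 of each other, and the Cdk1 ratio was 2.44 above that of Cdk2 on the log2 scale.

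Set in order, the members formed a high group and a low group. From the top they were Ccna2, Ccnd1, Cdk1, Ccnb1, Ccne1, Ccnb2 and Ccne2, with gaps between neighbours of 0.05 to 0.37, then Cdk2, Ccnd3 and Ccnd2, with gaps of 0.26 and 0.63. Between Ccne2 and Cdk2 the gap was 1.73. As a measure of spread within the arrays, probe sets of one gene were compared. Over 2067 genes with at least 2 probe sets above the floor, the log2 ratios of the 2 brightest differed by a median of 0.25 and, at the 95th percentile, by 0.92. Every gap between neighbours within the high or the low group was under that 95th percentile, so neighbours there have no settled order. The gap between the groups was above it, but the groups were cut at the widest gap, so its size does not test the split. The ends of the high group, Ccna2 at 3.55 and Ccne2 at 2.36, also lay further apart than that percentile. This spread holds no variation between rats, and no error of a pool or an array that the probe sets of a gene share.

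**Figure D2:**
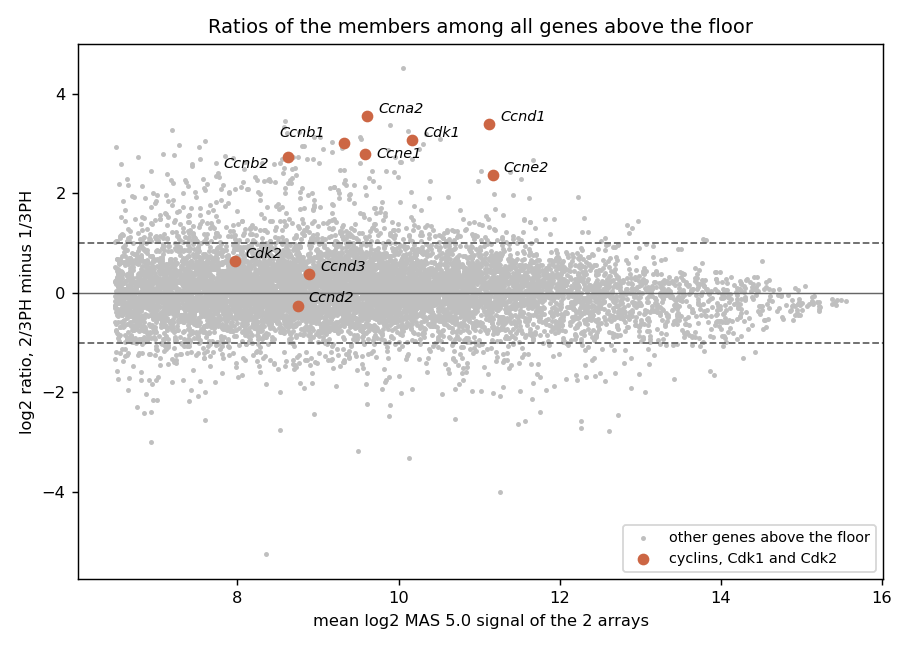
Log2 ratio, 2/3PH minus 1/3PH (vertical axis), against the mean log2 MAS 5.0 signal of both arrays (horizontal axis) for the 9514 genes above the floor, with the 10 members labelled and the 2-fold limits dashed. The 7 high members lie at log2 ratios from 2.36 to 3.55, and Cdk2, Ccnd3 and Ccnd2 lie inside the limits.

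Set against their kinase partners, the B-type cyclins had ratios close to that of Cdk1, whereas the E-type cyclins and Ccnd1 had ratios well above those of Cdk2 and Cdk4. Ccnb1 and Cdk1 differed by 0.05 in log2 ratio, with Cdk1 the higher, and Ccnb2 lay 0.33 under Cdk1. Ccna2 was 0.49 above Cdk1 and 2.92 above Cdk2. Ccne1 was 2.16 and Ccne2 1.73 above Cdk2. Ccnd1 was 2.62 above Cdk4, its usual partner, which had a signal of 855.8 in the 1/3PH pool and 1460 in the 2/3PH pool and a log2 ratio of 0.77. Ratios of transcripts do not show the amounts of the protein complexes, which these arrays did not measure.

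The kinase complex that activates Cdks lay within 2-fold as deposited. Cdk6, the other partner of D-type cyclins, lay under the floor on both arrays, with signals of 31.3 and 52.6. In the trimeric CDK-activating kinase, Cdk7 had a log2 ratio of 0.39, its cyclin Ccnh one of 0.10 and its assembly factor Mnat1 one of 0.60. Of these 5 genes including Cdk4, 4 were above the floor and none passed 2-fold in either direction, with a median log2 ratio of 0.49. Most genes did not pass either, since 6.12% of all genes above the floor were 2-fold higher and 3.68% lower. Scaled to the poly-A controls, 2 of the 4 passed 2-fold upward, Cdk4 at 1.21 and Mnat1 at 1.04. Scaled to the hybridisation controls 1 did, Cdk4 at 1.01. Cdk7 and Ccnh stayed within 2-fold on both scales.

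Among other cyclins above the floor, the F-box protein Ccnf had the largest log2 ratio. The shares past 2-fold here are read against 6.12% higher and 3.68% lower among all genes above the floor. Of 16 other cyclins measured, 13 were above the floor, and 2 passed 2-fold upward and none downward, with a median log2 ratio of 0.07 that turned negative with no floor, with a floor at the 75th percentile and with the mean over probe sets. Quantile normalization gave 1 cyclin 2-fold lower, Ccng2 at -1.01, and no floor gave 1, Ccna1, which lay under the floor on both arrays. With the floor at the 75th percentile 1 passed upward. The higher ones were Ccnf, which recognises substrates of a ubiquitin ligase and binds no Cdk, with signals of 118.1 and 477.5 and a log2 ratio of 2.02, and Ccng1, a p53 target, with a log2 ratio of 1.28. Ccng2, a cyclin linked to cell cycle exit, had a log2 ratio of -0.92, and Ccnl2, of RNA splicing, had one of -0.44 at its brightest probe set and -1.38 at the lowest of 3. Of 15 other Cdks measured, 14 were above the floor, none was 2-fold higher and 1 was 2-fold lower, with a median of 0.09. The higher count was 1 with poly-A scaling, Cdkl2 at 1.04, and 1 with the mean over probe sets. With no floor the lower count was 2. The lower gene as deposited was Cdk18, at -1.24, but its second probe set gave -0.13. Cdk18 was within 2-fold with the mean over probe sets, at -0.68, with 64 units added and under poly-A scaling. Cdk13, a transcriptional kinase, had -0.81 and -0.20 at its second probe set, and Cdk14 had -0.49. Cdkl2 had 0.60, with a 1/3PH signal of 84.1, under the floor.

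Direct regulators of Cdk activity were divided. The background for the counts here is 6.12% higher and 3.68% lower among all genes above the floor. Of 11 phosphatases, inhibitory kinases and Cks subunits measured, 10 were above the floor, and 4 passed 2-fold upward and none downward, around a median of 0.79. They were Cdkn3, a phosphatase that acts on Cdks, with signals of 116.2 and 1269 and a log2 ratio of 3.45; the Cdk-binding subunit Cks2, with 894.1 and 4855 and a log2 ratio of 2.44; and the kinases that inhibit Cdk1, Pkmyt1 at 1.26 and Wee1 at 1.10. The second Wee1 probe set gave 0.93, and the count was 3, without Wee1, when probe sets ending in _s_at, _x_at or _a_at were left out. The count was 2 with 64 signal units added before the log and 2 with the floor at the 75th percentile. Of 7 Cdk inhibitors measured, 5 were above the floor and 3 were 2-fold higher, Cdkn1a (p21) at a log2 ratio of 2.17, Cdkn2c (p18) at 1.36 and Cdkn2d (p19) at 1.11, whereas Cdkn1b (p27) had 0.48. The second probe set of Cdkn2c gave 0.16 and that of Cdkn2d 0.78, so with the mean over probe sets only 1 inhibitor passed.

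Transcription factors that act upstream of cyclin genes, and the machinery that destroys cyclins, each held members at least 2-fold higher. Rb proteins restrain E2F factors, and the DREAM complex represses cell cycle genes in quiescent cells. Of 18 Rb, E2F and DREAM genes above the floor, 9 passed 2-fold upward and none downward, around a median of 0.85. With the floor at the 75th percentile 8 of these genes were left and 2 passed. E2f8, a repressor E2F, had signals of 147.3 and 698.3 and a log2 ratio of 2.24. Mybl2, Foxm1 and E2f7, counted among the 9, were under the floor on the 1/3PH array and reached it in the mean only through their 2/3PH signal. With the floor signal in place of the 1/3PH signal, they were at least 2.78-fold, 3.60-fold and 3.14-fold higher. Of 19 genes for destruction of cyclins and Cdk inhibitors, 4 passed 2-fold upward and none downward, around a median of 0.08. Those were Cdc20, the mitotic activator of the anaphase-promoting complex, with signals of 167.2 and 1475; the ubiquitin-conjugating enzymes Ube2c, with 249.1 and 2178, and Ube2s, at a log2 ratio of 1.26; and Fbxo5, an inhibitor of that complex, at least 3.00-fold higher. Fbxo5 too was under the floor on the 1/3PH array and counted among the 4 only through its 2/3PH signal. The ligase subunits measured, from Skp1 and Cul1 to Anapc11, were all within 2-fold on the deposited scale. Cdc20 had a log2 ratio of 3.14 at its brightest probe set and between 2.01 and 4.16 over 3. For each of these lists the background is that of all genes above the floor, 6.12% higher and 3.68% lower at 2-fold. That background uses the same floor on the mean of both arrays.

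**Figure D3:**
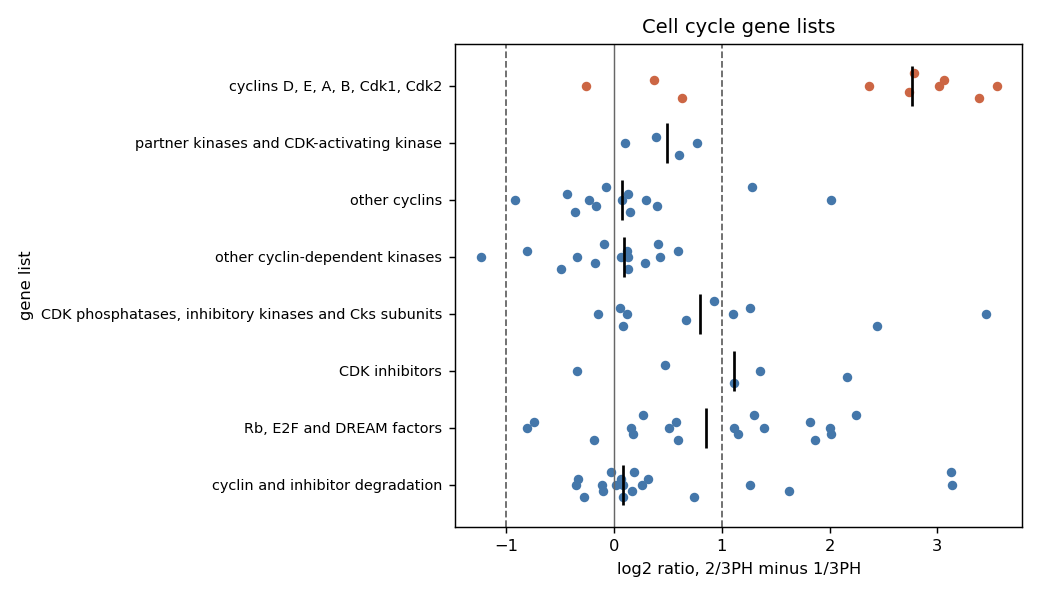
Log2 ratio, 2/3PH minus 1/3PH (horizontal axis), of each gene above the floor in the 10 members (top row) and in 7 other cell cycle lists, with the median of each list as a black bar and the 2-fold limits dashed. The members have a median of 2.76, and the other lists have medians from 0.07 to 1.11.

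Scaling to control probe sets shifts every log2 ratio by one constant. Hybridisation controls are meant to be added just before hybridisation. The median log2 ratio of all genes above the floor was 0.03 as deposited, 0.27 when scaled to hybridisation controls and 0.48 when scaled to poly-A controls. The log2 ratios of the 18 hybridisation control probe sets ran from -0.47 to -0.03 and those of the 24 poly-A control probe sets from -0.74 to 0.09. The members' median lay 2.73 above that of all genes as deposited, 2.71 above it under quantile normalization, 2.69 above it under loess and 2.40 above it with 64 units added. Over all genes, 582 were 2-fold higher and 350 lower as deposited, 973 and 210 on the hybridisation control scale, and 1599 and 123 on the poly-A scale. Cdk2 passed the 2-fold limit under poly-A scaling, at 1.07.

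**Figure D4:**
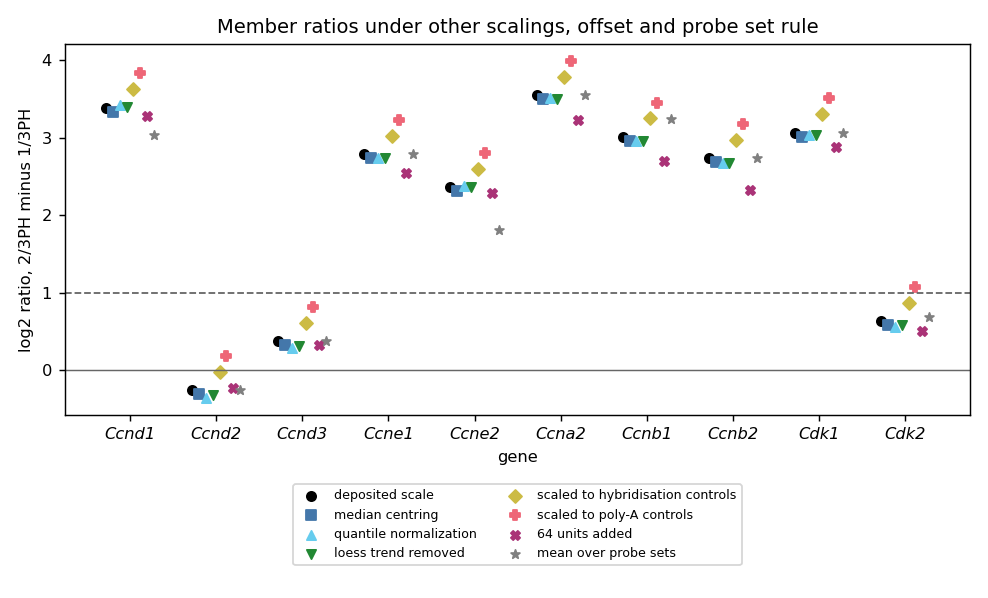
Log2 ratio, 2/3PH minus 1/3PH (vertical axis), of the 10 members (horizontal axis) on the deposited scale and under 7 alternatives of scaling, offset and probe set rule, with the 2-fold limit dashed. The 7 high members stay above a log2 ratio of 1.80, and Ccnd2 lies between -0.36 and 0.18.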

How the data were processed

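Liver RNA of 2 pools was measured on Affymetrix arrays. The deposited values are log2 signals. Per the labels' protocols, the authors made them with the MAS 5.0 algorithm of GeneSpring 11.0. After undoing the log2, the arrays shared a trimmed mean (2% off each end) of 500.3 for 1/3PH and 500.2 for 2/3PH. Detection calls and a scaling target are not stated there. Probe sets were named from the platform annotation, with symbols updated by Entrez identifier to RefSeq (GRCr8). Besides 57 controls there were 31042 probe sets: 20826 with 1 symbol, 436 with several, which were left unnamed, and 9780 that the annotation does not list. Of 176 list entries, 1 matched by synonym and 22 did not match. Named outside the members were the up to 4 most different genes above the floor in each list, and Cdk4, Cdk6, Cdk7 and Ccnh. Where the dimmer array of a called gene was under the floor, the fold is "at least", with the floor signal in its place. Members and lists were chosen with earlier results of these data known. The number of arrays limits the precision. The procedure was tested on simulated data with noise of one size at every signal level, so calls near the floor were not checked by it. Python 3.11.15, pandas 2.3.3, numpy 2.4.6 and statsmodels 0.14.6 (loess span 0.4) were used. Alternatives covered scaling, floor, offset, probe set rule and fold limit, and those for genes outside the members were added after the data were seen.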

Additional observations from a re-analysis of the deposited data

How the results depend on the processing

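The count of 7 members at least 2-fold higher was between 6 and 8 under all 12 alternatives. It was 8 with poly-A scaling and with a 1.5-fold limit, where Cdk2 joined. It was 6 with the floor at the 75th percentile, which removed Ccnb2, Ccnd2 and Cdk2, and 6 with probe sets ending in _s_at, _x_at or _a_at left out, which removed Ccna2. The members' median log2 ratio was 3.20 with poly-A scaling and 2.43 with 64 units added. Genes at least 2-fold higher and lower numbered 973 and 210 when scaled to hybridisation controls, 1599 and 123 when scaled to poly-A controls, 1662 and 1213 with no floor, 285 and 207 with the higher floor, 1504 and 1145 at 1.5-fold, and 213 and 95 at 3-fold. No paired analysis was possible because each group had 1 array. Signal near the floor limits Cdk6, the dimmer Ccnb1 probe set and the folds of other genes that were dim on the 1/3PH array. With 64 units added, the log2 ratio fell from 3.55 to 3.23 for Ccna2 and from 2.74 to 2.32 for Ccnb2. It fell from 3.45 to 2.89 for Cdkn3, from 3.14 to 2.73 for Cdc20 and from 2.02 to 1.57 for Ccnf. For Pkmyt1 it fell from 1.26 to 0.91, within 2-fold.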
